A study of Mus musculus with 6 samples.

Results

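The 6 libraries of lumbar spinal cord fell apart into 3 that were rich and 3 that were poor in transcripts of motor neurons, and this division cut across the treatment. The sets were made from the measured level of Slc5a7, the high-affinity choline transporter of cholinergic nerve terminals. Libraries at 10 FPKM or more (fragments per kilobase of transcript and per 1000000 mapped fragments) formed the high set and those under 10 FPKM the low set. The high set, 3 of the 6 libraries, held saline 1, saline 2 and morphine 2, at 22.9, 20.4 and 18.3 FPKM. The low set, also 3 of the 6, held saline 3, morphine 1 and morphine 3, at 3.70, 4.62 and 1.86 FPKM. The values nearest to the threshold were therefore 18.3 FPKM inside the high set and 4.62 FPKM outside it. Below, the values of the high set are given in the order saline 1, saline 2, morphine 2, and those of the low set in the order saline 3, morphine 1, morphine 3.

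The tissue was the L4-L5 lumbar cord. The mice carried the wild-type genotype, and for 7 days either saline or 10 µg of morphine in a volume of 10 µL was injected intrathecally, into the fluid around the cord. Each treatment had 3 libraries of total RNA. The sources used here do not give whether a library came from 1 animal or from several. All 6 libraries share the genotype, the segment range and the injection route. The depth estimated from the steps in the FPKM values, in units of 1000000 fragments, was 21.2 to 26.1 in saline and 17.9 to 19.9 in morphine, so that 1 fragment on a transcript of 2000 nt was worth 0.0192 to 0.0280 FPKM. Because the libraries were divided by their own values, every difference between the sets is given as a description, without a test.

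Somatic motor neurons are the large cholinergic cells of the ventral horn whose axons leave the cord through the ventral roots to skeletal muscle. They make acetylcholine with choline acetyltransferase, load it into vesicles with a dedicated transporter and recover choline with Slc5a7. Alpha motor neurons drive the muscle fibres, gamma motor neurons set the length of the muscle spindles, and visceral motor neurons of the cord act on autonomic ganglia. In bulk tissue, fewer cells of a type and less RNA per cell cannot be told apart, and this holds for each cell type named here.

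The difference between the sets was computed for each gene on the log2(FPKM + 1) scale with treatment in the model. It equals the mean of the difference within saline (saline 1 and 2 minus saline 3) and the difference within morphine (morphine 2 minus morphine 1 and 3). Genes at 1 FPKM or more in at least 3 libraries entered, 14614 of the 52513 in the table. A gene was counted as different where the 3 high and the 3 low values did not overlap and the difference was at least 1. By this count 43 genes (0.294% of those tested) were higher and 15 (0.103%) were lower in the high set. Without the requirement on size, 1442 genes (9.87%) lay wholly above and 1940 (13.3%) wholly below the low set, with a median difference over all tested genes of -0.04.

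The other 4 markers that go with the rule followed Slc5a7 in every library. Chat, choline acetyltransferase (chr14:32408203-32465989, minus strand), stood at 8.19, 7.70 and 7.97 FPKM in the high libraries and at 2.08, 2.13 and 1.20 FPKM in the low ones. Chodl, a C-type lectin that marks fast motor neurons (chr16:78930948-78951733, plus strand), stood at 31.5, 29.5 and 25.1 against 4.99, 8.89 and 2.83 FPKM. The difference was 1.66 for Chat and 2.24 for Chodl on the log2(FPKM + 1) scale, beside 2.26 for Slc5a7 (chr17:54273590-54299034, minus strand). Prph, the intermediate filament peripherin of neurons with axons outside the cord (chr15:99055174-99058978, plus strand), was at 55.1, 53.7 and 55.6 FPKM in the high set. In the low set Prph was at 8.98, 21.4 and 7.03 FPKM, a difference of 2.27. Calca, which encodes calcitonin and the neuropeptide CGRP alpha (chr7:114631478-114636357, minus strand), was at 81.8, 113 and 106 against 23.5, 50.5 and 20.8 FPKM, a difference of 1.83. The 5 markers did not overlap between the sets, and morphine 1 was the highest of the low libraries for each of them. Coordinates are those of GENCODE M21 on mm10.

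**Figure D1:**
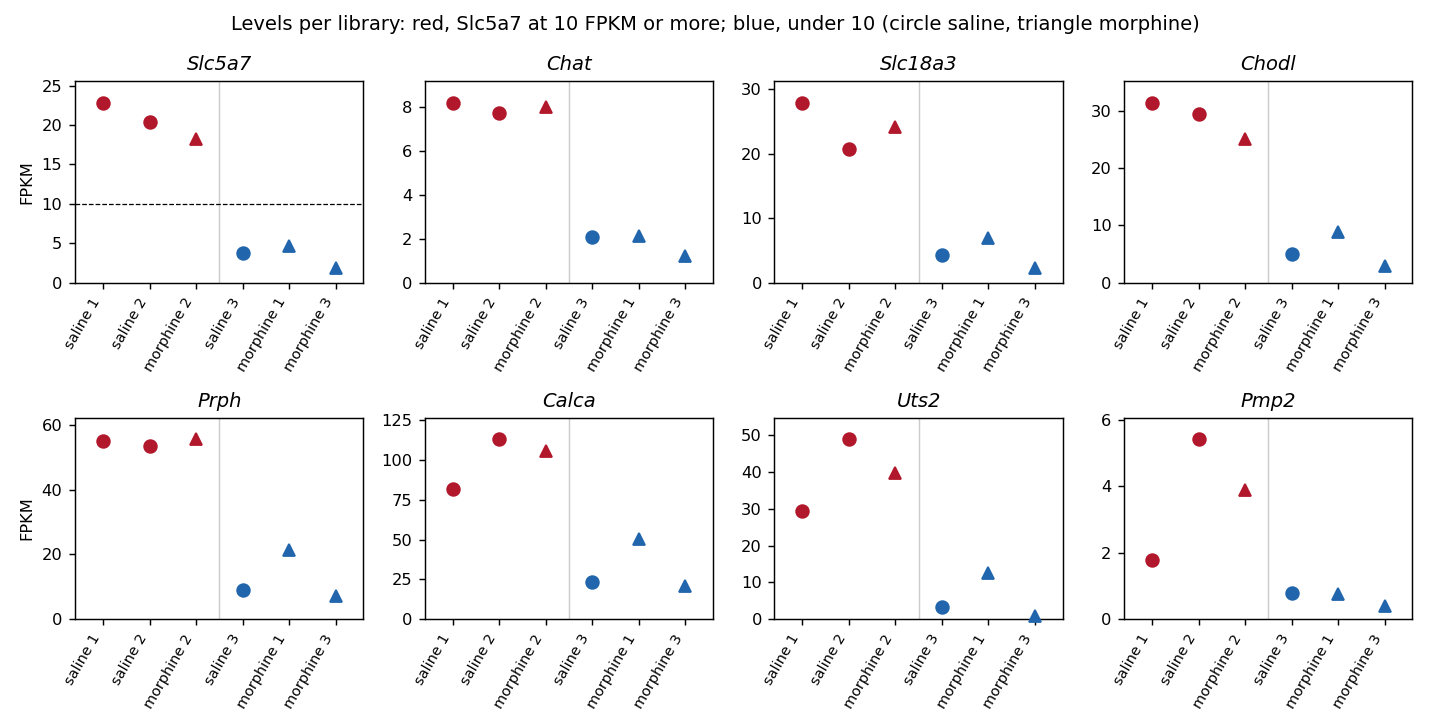
FPKM of 8 genes in each library (vertical axis, linear, starting at 0), with the 3 libraries at 10 FPKM or more of Slc5a7 in red and the 3 under 10 FPKM in blue; circles are saline, triangles are morphine, and the dashed line is the 10 FPKM threshold. Slc5a7, Chat, Slc18a3, Chodl, Prph, Calca and Uts2 step down together between the sets, while Pmp2, a peripheral myelin gene, runs from 5.41 FPKM in saline 2 to 0.41 FPKM in morphine 3.

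The bases before the start of 4 genes are shown because the results on acetylcholine and on peptides turn on them: the transporters Slc5a7 and Slc18a3, the peptide gene Calca among the markers, and Uts2, the peptide gene with the largest difference. Each run is the 250 bases before the annotated start, 5′ to 3′ on the gene's strand, from RefSeq on GRCm38.p6, the assembly that mm10 names. Slc5a7 is at chr17:54299035-54299284 (minus strand), Slc18a3 at chr14:32464851-32465100 (minus strand), Calca at chr7:114636358-114636607 (minus strand) and Uts2 at chr4:150996847-150997096 (plus strand). Capitals mark any of 4 motifs searched on both strands: the E-box CAGCTG, the cyclic AMP response half-site TGACG, the homeodomain core TAATTA and the TATA box TATAAA.
Slc5a7: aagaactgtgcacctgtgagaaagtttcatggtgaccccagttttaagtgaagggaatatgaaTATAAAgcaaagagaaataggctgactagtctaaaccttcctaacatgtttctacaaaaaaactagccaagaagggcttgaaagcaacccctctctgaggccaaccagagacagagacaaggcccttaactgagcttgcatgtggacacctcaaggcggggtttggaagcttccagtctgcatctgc
Slc18a3: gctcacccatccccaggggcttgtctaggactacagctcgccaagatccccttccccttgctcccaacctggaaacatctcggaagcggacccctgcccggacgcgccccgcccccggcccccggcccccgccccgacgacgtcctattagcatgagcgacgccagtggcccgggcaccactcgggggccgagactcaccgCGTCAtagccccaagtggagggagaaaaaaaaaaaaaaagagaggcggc
Calca: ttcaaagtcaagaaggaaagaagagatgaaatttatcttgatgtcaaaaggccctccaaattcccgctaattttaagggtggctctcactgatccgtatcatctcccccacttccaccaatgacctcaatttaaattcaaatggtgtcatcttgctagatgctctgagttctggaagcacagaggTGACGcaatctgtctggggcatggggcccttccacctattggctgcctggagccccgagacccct
Uts2: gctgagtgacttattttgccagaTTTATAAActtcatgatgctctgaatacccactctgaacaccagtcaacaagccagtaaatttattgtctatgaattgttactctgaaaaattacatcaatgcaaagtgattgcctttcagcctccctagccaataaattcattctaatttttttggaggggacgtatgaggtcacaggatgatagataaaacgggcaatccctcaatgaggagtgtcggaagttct
The TGACG half-site began 65 bases before the start of Calca and, as CGTCA on the other strand, 49 bases before that of Slc18a3. TATAAA began 187 bases before the start of Slc5a7 and 225 bases before that of Uts2, where it overlaps the same motif on the other strand. Of all 32851 windows of this length, 13.0% held CAGCTG, 17.8% TGACG, 4.8% TAATTA and 12.4% TATAAA. Of the 31 named genes counted as higher 30 are reported here, of which 24 had a window. Of these, 6, 5, 1 and 9 held the respective motif in any of their windows. These counts are per gene and the shares above are per window, so they cannot be set against each other. A match is a description of the letters and not of a bound site.

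The genes of the acetylcholine machinery differed between the sets to unlike degrees. Of the 9 genes listed for cholinergic transmission 8 were tested, and 6 lay wholly above and none below the low set, with a median difference of 0.47. The 6 include Slc5a7, which made the sets, and the marker Chat. Without Slc5a7, 5 of 7 lay wholly above, with a median of 0.35. Slc18a3, the vesicular acetylcholine transporter (chr14:32462438-32464850, minus strand), stood at 27.9, 20.7 and 24.2 FPKM in the high and 4.20, 6.90 and 2.27 FPKM in the low libraries, a difference of 2.29. It lies within Chat on the same strand, so fragments of the 2 genes may have been divided between them. Ache, which breaks acetylcholine down, was at 101.9, 99.8 and 99.4 against 101.2, 101.5 and 102.5 FPKM, a difference of -0.02. Thus Ache overlapped between sets in which Chat, Slc18a3 and Slc5a7, the gene that made the sets, were several times apart. Prima1, which anchors acetylcholinesterase in the membrane, was at 15.9, 11.3 and 15.5 against 10.01, 9.87 and 7.46 FPKM, a difference of 0.58. The choline transporter-like gene Slc44a1 (0.35) and butyrylcholinesterase (Bche, 0.23) were wholly higher as well, by less. Choline kinase (Chka) differed by 0.02. Colq, the collagen tail of acetylcholinesterase, was under the filter. Slc10a4, a vesicle protein of cholinergic and monoaminergic neurons that was in no list, was at 23.96, 20.95 and 28.4 against 4.43, 9.74 and 3.75 FPKM, a difference of 2.08.

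Neuropeptide genes held the largest difference of the named genes. Uts2, urotensin II (chr4:150997097-151001810, plus strand), stood at 29.6, 48.95 and 39.8 FPKM in the high libraries and at 3.26, 12.5 and 0.85 FPKM in the low ones, a difference of 3.11. It lies opposite Camta1, and the sources used here do not state whether the counting used strand. Its difference was 0.43 when the replicate numbers were fitted as a block, the lowest of the settings tried. Uts2b, the related urotensin peptide, was at 8.63, 10.3 and 12.2 against 1.75, 3.57 and 0.52 FPKM, a difference of 2.12. Calcb, which encodes CGRP beta, was at 13.5, 14.5 and 12.6 against 1.89, 3.05 and 2.03 FPKM, a difference of 2.16. The receptors for trophic factors were closer together: Ret, the GDNF receptor kinase, was at 22.8, 20.1 and 19.5 against 13.5, 12.2 and 12.5 FPKM, a difference of 0.62. Gfra1, its co-receptor, differed by 0.26, and Nrg1, a growth factor that motor neurons give to muscle and Schwann cells, by 0.67. Of the 15 tested genes for peptides and trophic receptors, 8 lay wholly above and 1 wholly below the low set. That 1 was Gfra2, with a difference of -0.24, and the receptor kinases Ntrk2 and Ntrk3 were both at -0.08, values named after they were seen.

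The genes known from fast alpha, gamma and visceral motor neurons are described by their counts, and the lists were not tested against each other. Of 10 tested alpha and fast genes 7 lay wholly above and 1 wholly below the low set, with a median of 0.73. The 7 include the markers Chodl and Calca. The 1 below was Rbfox3, at 73.7, 77.8 and 74.6 against 87.4, 93.7 and 93.0 FPKM, a difference of -0.26. Sv2a (-0.17) and Kcnq5 (-0.13) were also lower on average but overlapped between the sets. Spp1, the secreted protein osteopontin, was at 95.7, 86.5 and 102.1 against 37.6, 45.6 and 33.3 FPKM, a difference of 1.31. Vipr2, a receptor for vasoactive intestinal peptide, was at 1.34, 1.21 and 1.59 against 0.31, 0.41 and 0.14 FPKM, a difference of 0.91. Mmp9, a matrix protease of fast motor neurons, differed by 0.76, with 7.34, 5.82 and 7.96 against 3.29, 4.62 and 4.37 FPKM. Of 7 tested gamma genes 3 lay wholly above the low set, with a median of 0.15. Among them Esrrg, a nuclear receptor of gamma motor neurons, differed by 0.21, Npas1 by 0.25 and Plch1 by -0.27. Of 3 tested visceral motor neuron genes, Tns1 was wholly higher, at 10.5, 8.29 and 8.61 against 4.41, 4.98 and 3.92 FPKM, and Nos1, neuronal nitric oxide synthase, wholly lower, with a difference of -0.23.

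Of the 16 transcription factors listed for motor neurons 10 passed the filter. Of the 10, 5 lay wholly above and 1 wholly below the low set, with a median of 0.14. Mnx1, the homeodomain factor of postmitotic motor neurons, was at 1.62, 1.43 and 1.29 FPKM in the high and 0.23, 0.47 and 0.18 FPKM in the low libraries, a difference of 0.92. Isl2 was at 2.26, 1.53 and 1.57 against 0.53, 0.61 and 0.16 FPKM, and Nkx6-1 at 1.90, 1.54 and 2.02 against 0.59, 0.65 and 0.57 FPKM. The difference was 0.91 for Isl2 and 0.84 for Nkx6-1, and the added 1 FPKM makes these differences smaller than the ratios of the levels. Bcl6 (0.56) and Etv1 (0.23) were the other factors that were wholly higher. Ebf2, at 3.52, 3.63 and 3.55 against 5.30, 4.54 and 5.12 FPKM, was wholly lower, with a difference of -0.41. Etv4 (-0.33), Foxp1 (-0.09), Lmo4 (-0.03) and Pou3f1 (0.06) overlapped between the sets. Under the filter, Isl1 was at 0.99, 1.07 and 1.26 against 0.63, 0.45 and 0.50 FPKM, while Lhx3 did not separate the sets, at 0.47, 0.38 and 0.66 against 0.27, 0.69 and 0.61 FPKM.

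The neurofilaments, the structural proteins of large axons, differed by about 1 on the log2 scale. Nefh, the heavy chain, stood at 494, 431 and 453 FPKM in the high and 223, 263 and 207 FPKM in the low libraries, a difference just under 1, the size used to count a gene as different. Nefm, the medium chain, was at 990.03, 873 and 813 against 466, 499 and 409 FPKM, a difference of 0.92, and Nefl, the light chain, differed by 0.86. Sncg, gamma-synuclein, was at 119, 113 and 151 against 49.2, 82.4 and 58.1 FPKM, a difference of 1.17. Other axonal genes were closer or went the other way: Gap43, a growth cone protein, was at 110.5, 109.9 and 122 against 148, 154 and 169.7 FPKM, a difference of -0.41. Of the 19 tested genes of the axonal cytoskeleton 8 lay wholly above and 3 wholly below the low set. The small heat shock gene Hspb1 was at 55.8, 50.98 and 63.8 against 27.2, 28.2 and 18.7 FPKM, a difference of 1.19, in a list of 11 heat shock genes whose other 10 members overlapped between the sets. Its near-identical copy Hsp25-ps1 makes the division of fragments uncertain.

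Genes of excitability and release that many neurons share had medians of -0.09 (ion channels) and -0.16 (vesicle release), beside -0.04 for all tested genes. Of all tested genes 9.87% lay wholly above and 13.3% wholly below the low set. The counts below for ion channels, the perineuronal net and disease genes are not far from these shares. Of 20 tested ion channels of large neurons 1 lay wholly above and 3 wholly below the low set, with a median of -0.09. The pacemaker channel Hcn2 (0.16) was the one above, and the potassium channels Kcnc1 (-0.25) and Kcnc2 (-0.35) and the calcium channel Cacna1a were those below. Kcnj14, an inward rectifier potassium channel that was in no list, was at 11.5, 10.8 and 11.3 FPKM in the high and 2.89, 4.66 and 1.76 FPKM in the low libraries, a difference of 1.64. Cacna1a, which acts in presynaptic terminals, was at 15.1, 15.6 and 12.6 against 19.8, 23.8 and 15.7 FPKM, a difference of -0.46. Of 16 vesicle release genes, Sv2b alone was wholly higher, at 23.5, 22.02 and 20.6 against 15.9, 13.5 and 13.2 FPKM, and 6 were wholly lower. Syt1, the calcium sensor of fast release, was among the 6, at 47.6, 53.03 and 43.2 against 72.6, 63.9 and 66.9 FPKM, a difference of -0.55. In the perineuronal net list 1 of 8 tested genes, Acan (0.15), was wholly higher. The 19 tested genes linked to inherited motor neuron disease, which all cells express to some degree, had a median of -0.07, with 1 wholly higher, Fig4 (0.21), and 2 wholly lower, Ubqln2 (-0.27) and Matr3 (-0.21).

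**Figure D2:**
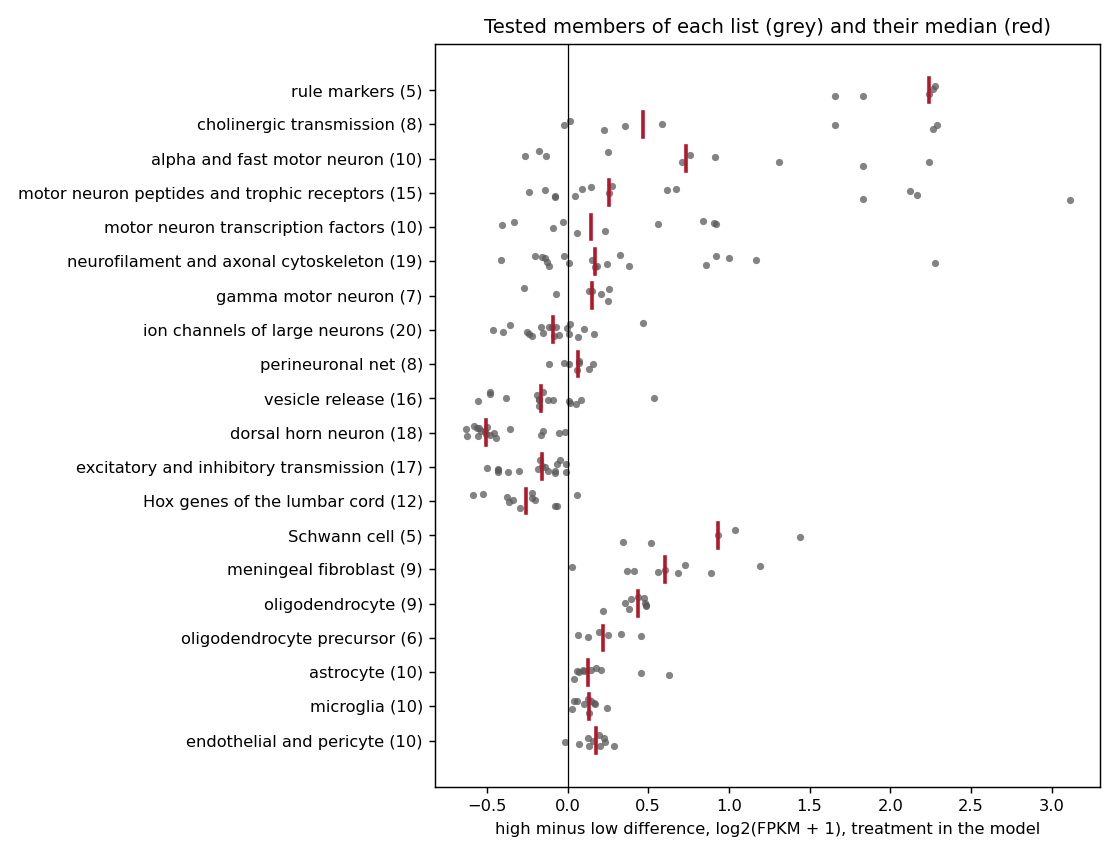
Difference between the high and the low set for each tested member of 20 gene lists (grey points, log2(FPKM + 1) scale, treatment in the model; vertical scatter within a row is for legibility) and the median of each list (red bars), with the number of tested members in parentheses. The rule markers, whose values go with the choice of the sets, lie between 1.66 and 2.27, the dorsal horn list lies between -0.63 and -0.02, and the oligodendrocyte list between 0.22 and 0.49.

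Over all tested genes, listed or not, the genes closest to Slc5a7 across the 6 libraries were found by Pearson's r on the log2 scale. The 10 highest of the genes reported here were Arhgap36 (0.996), Chat (0.995), Slc45a3 (0.994), Mcam (0.993), Magt1 (0.993), Nefm (0.993), Msn (0.993), Chodl (0.992), Galnt6 (0.992) and Slc18a3 (0.992). With 6 points in 2 groups, these coefficients mostly restate the gap between the sets. Arhgap36 was at 19.4, 17.5 and 16.7 against 7.97, 9.28 and 6.98 FPKM, a difference of 1.04. Mcam, a cell adhesion molecule, was at 29.2, 29.3 and 28.9 against 14.95, 15.8 and 13.2 FPKM, a difference of 0.94. Ahnak2, a large scaffold protein, was at 36.3, 29.03 and 32.3 against 7.13, 13.5 and 4.30 FPKM, a difference of 1.98. Anxa2, a calcium-dependent membrane-binding protein, was at 29.2, 28.6 and 33.8 against 9.91, 15.3 and 7.45 FPKM, a difference of 1.51. The histone gene Hist1h2bq was at 10.2, 10.9 and 20.2 against 7.09, 0 and 9.61 FPKM, a difference of 0.51 within saline and 2.70 within morphine, and near-identical histone copies make its assignment uncertain.

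Most listed genes of ventral horn interneurons were under the filter. Of the 13 genes listed 4 were tested, with a median of -0.07, and those under the filter are described by their values, chosen after these were seen. Chrna2, the nicotinic receptor subunit of Renshaw cells, was at 1.07, 0.98 and 0.87 FPKM in the high and 0.04, 0.12 and 0.11 FPKM in the low libraries. Renshaw cells are inhibitory neurons beside the motor neurons that receive their axon collaterals. Evx1, a factor of V0 commissural neurons, was at 0.47, 0.36 and 0.61 against 0.07, 0.10 and 0.14 FPKM, and Foxp2, of V1 neurons, at 0.95, 1.09 and 0.85 against 0.46, 0.68 and 0.61 FPKM. En1, the defining factor of V1 neurons, overlapped, at 0.98, 0.78 and 0.65 against 0.54, 0.94 and 0.74 FPKM.

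Dorsal horn genes went the opposite way. All 18 tested members of the list had a negative difference, and 15 lay wholly below the low set, with a median of -0.50 beside -0.04 for all tested genes. Their summed level was 894.6 to 1027 FPKM in the high and 1229 to 1355 FPKM in the low libraries. Lbx1, the factor that specifies dorsal interneurons, was at 10.1, 11.02 and 10.1 FPKM in the high and 15.7, 15.4 and 16.1 FPKM in the low libraries, a difference of -0.56. Npy, an inhibitory peptide of the superficial laminae, was at 46.7, 50.2 and 48.3 against 65.3, 85.8 and 85.8 FPKM, a difference of -0.62. Sst, somatostatin, was at 354, 379.95 and 299 against 486, 502 and 509 FPKM, a difference of -0.58, and Npff, a peptide that modulates opioid action, differed by -0.63 (-0.37 within saline, -0.90 within morphine). Tacr1, Maf and Calb2 were the 3 that overlapped between the sets. Of 17 tested genes of excitatory and inhibitory transmission, all had a negative difference and 7 lay wholly below, among them Gad1, a GABA-synthesizing enzyme (-0.43), and the glutamate receptor Gria1 (-0.50). FPKM values are shares of a library, so these levels are relative to the other transcripts of the same library.

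Hox genes, which set position along the cord, also differed. Of 12 tested Hox genes 8 lay wholly below the low set and none wholly above, beside 13.3% and 9.87% of all tested genes. Their median difference was -0.26, beside -0.04 for all tested genes. Their summed level was 513 to 552 FPKM in the high and 651 to 726 FPKM in the low libraries. Hoxb9, with the largest difference of the list (-0.59), overlapped between the sets. Hoxb8 was at 194, 203 and 176 against 264.07, 264 and 283 FPKM, a difference of -0.52. Hoxd10 and Hoxa10, which are expressed in lumbar segments, had differences of -0.38 and -0.36. For Hoxd10 the difference was -0.08 within saline and -0.68 within morphine, with levels at 26.3, 29.29 and 19.4 against 29.33, 32.5 and 30.8 FPKM. The sources used here do not say where along and across the cord each piece was cut, and the part of dissection in these differences was not tested.

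Myelin genes of the cord were higher in the high set. All 9 oligodendrocyte genes had a positive difference and 7 lay wholly above the low set, with a median of 0.44. Their summed level was 15713 to 18071 FPKM in the high and 11366 to 14901 FPKM in the low libraries. Mog, a glycoprotein on the outer surface of central myelin, was at 271, 284 and 304 against 187, 236 and 223 FPKM, a difference of 0.49. Oligodendrocyte precursor genes had a median of 0.22, astrocyte genes 0.12, microglial genes 0.13 and endothelial and pericyte genes 0.18. Gfap, the intermediate filament of fibrous astrocytes, was at 594, 579 and 711 against 386, 455 and 445 FPKM, a difference of 0.63. Central myelin and Gfap are both abundant in white matter, and the share of white matter in each library was not measured.

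Schwann cell and meningeal fibroblast genes had median differences of 0.93 and 0.60, but most members overlapped between the sets. On the log2(FPKM + 1) scale both lists had their lowest mean in morphine 3, as had the cholinergic and peptide lists. For the fibroblast list that mean was 3.53 in saline 2 and 3.55 in saline 3, so the sets overlapped. Pmp22, a membrane protein of peripheral myelin, was at 98.7, 134 and 132 FPKM in the high and 73.3, 62.3 and 50.4 FPKM in the low libraries, a difference of 0.93. Pmp2, a fatty acid-binding protein of the same myelin, was at 1.79, 5.41 and 3.89 against 0.78, 0.76 and 0.41 FPKM, a difference of 1.44. Prx, which links the Schwann cell membrane to its skeleton, overlapped, at 1.93, 3.55 and 4.87 against 2.00, 1.57 and 0.11 FPKM. For Pmp22 the difference was 0.64 within saline and 1.22 within morphine. Of the 5 tested Schwann cell genes Pmp22 and Pmp2 lay wholly above the low set, and the summed level was 116 to 160 FPKM against 61.2 to 87.6 FPKM. Of 9 meningeal fibroblast genes 4 lay wholly above (Col3a1, Dcn, Lum and Col1a2), with summed levels that overlapped, at 757 to 1252 against 657 to 1026 FPKM. Col3a1, a fibrillar collagen, was at 8.49, 4.51 and 6.89 against 3.62, 2.10 and 0.79 FPKM, a difference of 1.20 that was 0.65 within saline and 1.74 within morphine. Igf2, a growth factor of the meninges, differed by -0.43 within saline and 1.64 within morphine. The part of attached roots and meninges in the difference between the sets was not tested.

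The peptides Calca and Calcb and the filament Prph are also made by sensory neurons of the dorsal root ganglion. Only 1 of the 12 ganglion genes that the files list was tested, Pou4f1, which dorsal horn neurons also express, and it was lower in the high set, with a difference of -0.62. The nociceptor genes Scn10a, Scn11a, Mrgprd, Nppb and Prdm12 were at 0.08 FPKM or less in every library, and Trpv1 was at 0.03 to 0.24 FPKM. The summed level of the list was 5.22 to 6.54 FPKM in the high and 8.72 to 10.4 FPKM in the low libraries. Most of that sum was Pou4f1, at 5.31, 5.28 and 4.45 against 7.25, 9.38 and 8.29 FPKM. The sum therefore describes Pou4f1 more than the ganglion genes as a group. Skeletal muscle genes summed to 1.22 to 2.80 FPKM in the high and 1.93 to 2.78 FPKM in the low libraries.

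**Figure D3:**
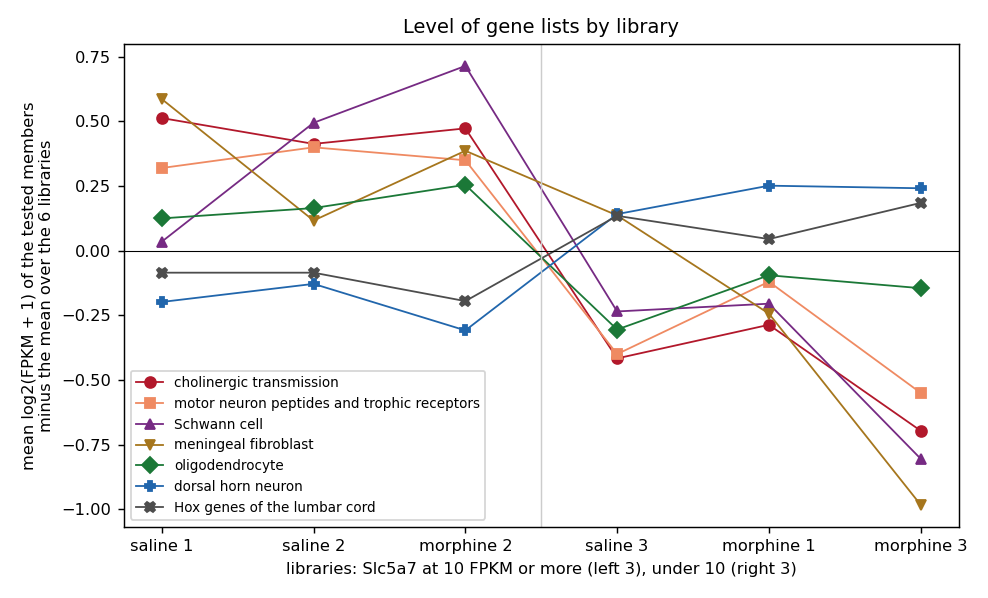
Mean log2(FPKM + 1) of the tested members of 7 gene lists in each library, minus the mean of that list over the 6 libraries; the 3 high libraries are left and the 3 low libraries right of the grey line, and lines join the points of a list for legibility only. The cholinergic and peptide lists step down and the dorsal horn and Hox lists step up between the sets. The cholinergic, peptide, Schwann cell and fibroblast lists are each lowest in morphine 3.

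The libraries within a set were not alike. Morphine 3 held the lowest value for 29 of the 43 genes counted as higher, saline 3 for 11 and morphine 1 for 3. The highest value was in morphine 2 for 19 of the 43, in saline 1 for 14 and in saline 2 for 10. Of the 43, 33 were protein coding and 8 pseudogenes, and 31 carried a gene name under the naming rule. Of these 31, 11 were in a motor neuron list and 2 in the Schwann cell or fibroblast lists. Among those in none of the lists were Hspb8, a small heat shock protein (33.1, 31.5 and 33.2 against 11.6, 16.6 and 10.4 FPKM), and Lgals1, a galectin (75.1, 64.03 and 79.7 against 25.4, 40.6 and 20.9 FPKM), both chosen after their values were seen. Their differences were 1.34 and 1.42. The 15 lower genes held 9 pseudogenes, and Rmrp, the RNA of a mitochondrial RNA-processing ribonuclease, was the one with a name. Rmrp was at 1.30, 1.60 and 1.56 FPKM in the high and 11.8, 2.66 and 3.00 FPKM in the low libraries, a difference of -1.49 that was -2.39 within saline and -0.58 within morphine. The value of saline 3 stood apart from the other low libraries.

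The difference can be read within each treatment, where for Slc5a7 the rule fixed its direction. It was 1.54 in saline and 1.77 in morphine for Chat, 2.27 and 2.31 for Slc18a3, and 3.20 and 3.03 for Uts2. Lbx1 had -0.53 in saline and -0.60 in morphine, and Mog had 0.57 and 0.40. Each of these rests on 1 library of the smaller set per treatment, saline 3 or morphine 2.

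**Figure D4:**
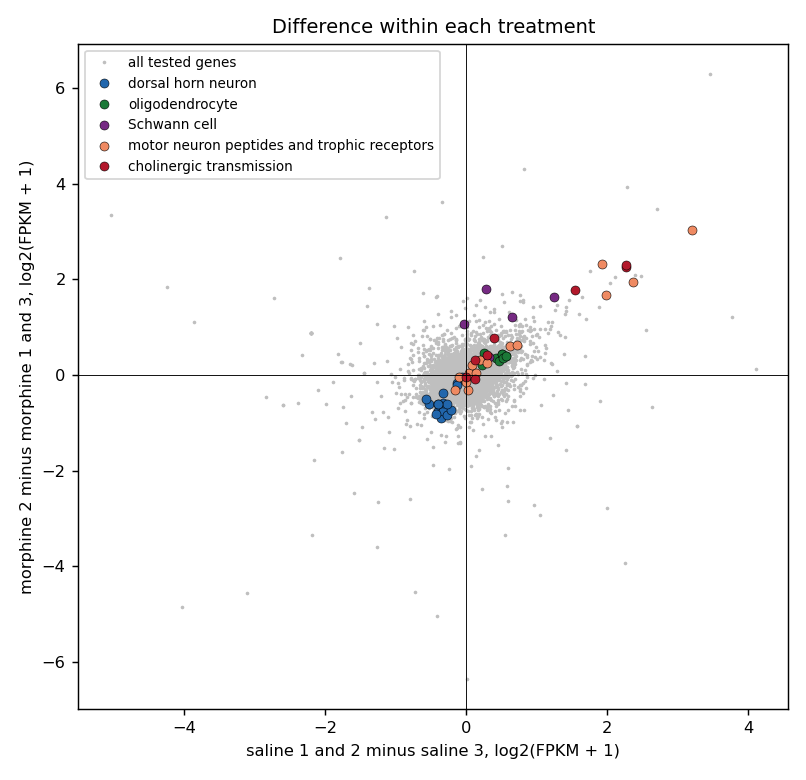
Difference between high and low libraries within saline (horizontal, saline 1 and 2 minus saline 3) and within morphine (vertical, morphine 2 minus morphine 1 and 3), both in log2(FPKM + 1), for all 14614 tested genes (grey) and for 5 lists (coloured). Cholinergic and peptide genes that are high in both lie near the diagonal, for example Slc18a3 at 2.27 and 2.31, and dorsal horn genes lie at the lower left.

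Saline had 2 of its 3 libraries in the high set and morphine 1 of 3, so the treatments differed in their share of high libraries. Morphine was compared with saline by limma with the set as a covariate, two-sided, with Benjamini-Hochberg adjustment, and that covariate was itself chosen from these data. Slc5a7 defines the covariate, so its effect in that fit is no test. Without the covariate the morphine effect on Slc5a7 was -0.98 (limma adjusted p = 0.525). The other 4 markers and Slc18a3 followed Slc5a7 over the 6 libraries, with r from 0.942 (Calca) to 0.995 (Chat). For them, too, the fit with the covariate cannot show whether morphine changed their levels. None of these 4 markers passed an adjusted p of 0.05 in limma, and 0 of them had an unadjusted p under 0.05 with the covariate. For Chat the effect was -0.11 ± 0.15 (SE, limma adjusted p = 0.665) with the covariate and -0.67 without it, and for Slc18a3 it was -0.01 ± 0.34 (adjusted p = 0.985) and -0.78. Calca had 0.30 ± 0.34 (limma adjusted p = 0.602) with the covariate and -0.31 without it. Of the 58 genes that differed between the sets, none was called for morphine in either limma fit, and 4 had an unadjusted p under 0.05 with the covariate. Of all 14614 tested genes, 772 were called with and 220 without the covariate, and 4087 had an unadjusted p under 0.05 in limma with it. The 58 were chosen from these same values along the sets, so their counts are no test of morphine.

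Over all genes, 483 (3.31%) were called higher and 289 (1.98%) lower in morphine with the covariate, against 138 (0.944%) and 82 (0.561%) without it. All 220 calls without the covariate were among the 772 with it, in the same direction. These counts depended on the libraries and on scaling. Leaving out any 1 library left 1 to 13 calls in all. There were 3 calls when saline 1 was dropped, 5 each for saline 2, saline 3 and morphine 1, 13 for morphine 2 and 1 for morphine 3. Rescaling each library to an equal total (TPM) gave 243 higher and 2144 lower, and quantile normalization 64 higher and 79 lower. Among the listed genes, Gfap passed at 0.25 (limma adjusted p = 0.035) with the covariate and stood at 0.04 (adjusted p = 0.934) without it. Pou3f1 passed at 0.49 (limma adjusted p = 0.045) with it and stood at 0.47 (adjusted p = 0.057) without it. Kcnk9, a two-pore potassium channel, fell by 1.59 (limma adjusted p = 0.033), at 7.36, 5.03 and 5.80 FPKM in saline 1, 2 and 3 and 0.56, 2.14 and 0.87 FPKM in morphine 1, 2 and 3. Without the covariate its effect was -1.74 (limma adjusted p = 0.046). With the covariate, 0 of the 18 dorsal horn, 8 cholinergic (Slc5a7 among them) and 10 alpha and fast genes were called in this limma fit. Of these, 3, 1 and 3 had an unadjusted p under 0.05 in limma, as had 4087 of all 14614 genes. The limit given above for genes that follow Slc5a7 applies to these lists as well.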

How the data were processed

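Per the labels, the 3 saline and 3 morphine libraries were made from total RNA with a stranded KAPA kit. The submitters' processing notes name mm10, RSEM, STAR, Trimmomatic and bcl2fastq 2.19.0; the sources used here do not give other versions, the annotation or the use of strand. The values are FPKM as deposited by the authors, in 6 columns matched by the sample descriptions; these name runs of numbers, and pooling is not stated, so p-values measure only the spread between these samples. Genes at 1 FPKM or more in 3 libraries were kept, 14588 of 14614 (99.8%) of which were in GENCODE M21. Differences are coefficients of limma 3.58.1 (R 4.3.3, trended moderated variances) on log2(FPKM + 1), a scale that understates changes of genes near 1 FPKM. The set difference has no test. Depth was estimated from the whole-fragment steps of FPKM in genes of 300 to 1500 nt, where 77.6% to 80.3% of values were whole within 0.05, against 12.7% to 17.0% for even spread. Tested on simulated data of 14614 genes, the morphine comparison recovered 50.7%, 80.3% and 96.3% of genes changed 1.5-, 2- and 3-fold, and 3.33% of calls were false. The simulated noise was independent between genes and libraries, and the set was given and not chosen from the values. These shares therefore do not give the error of the calls in the real libraries. Named were the 5 markers, the 15 largest differences per direction (without predicted genes, clone names and pseudogenes), the 10 genes most correlated with Slc5a7, up to 4 members of each list with the largest differences, and all cholinergic and motor neuron factor genes; every other gene named was chosen after its values were seen. Some genes are not reported here and were left out of the lists and of the named genes. The members, the lists and the rule were chosen with earlier results of these data known. Alternatives were another pseudocount and filter, TPM, quantile normalization, no treatment term, a continuous Slc5a7 covariate, a replicate block and leaving out each library.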

Additional observations from a re-analysis of the deposited data

Results flagged for a closer look

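For 7 named genes the difference between the sets had one sign in saline and the other in morphine, with the sets apart within each treatment; the difference between treatments was not tested. The value given is the difference within morphine minus that within saline, in log2(FPKM + 1). It was 1.1 for Ncmap, a gene of myelinating Schwann cells, -0.28 for Ncan, a proteoglycan of the perineuronal net, 0.15 for the factor Pou3f1 and 0.17 for the factor Lmo4. It was -0.33 for the nuclear RNA Malat1, -0.69 for Dynlrb2, a dynein chain of cilia, and 2.18 for the globin gene Hba-a2. Saline libraries 1 to 3 held Hba-a2 at 9.27, 4.49 and 20.4 FPKM, and morphine libraries 1 to 3 held it at 2.27, 3.05 and 0.98 FPKM.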

How the results depend on the processing

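The counts of genes that differed between the sets, 43 higher and 15 lower, came to 75 and 28 with a pseudocount of 0.1, and ranged from 39 to 75 higher and from 18 to 30 lower when 1 library was left out. The upper values, 75 and 30, were those without saline 3; without morphine 1 there were 23 lower and without morphine 2 there were 26. The other settings gave 32 to 50 higher and 10 to 21 lower. The morphine counts with the covariate, 483 higher and 289 lower, came to 0 and 1 with no filter (4758 genes at an unadjusted p under 0.05 in limma), 243 and 2144 with TPM, 64 and 79 with quantile normalization and 138 and 82 without the set. TPM moved the median morphine effect to -0.14, from -0.02. With 1 library left out, 0 to 10 were higher and 1 to 4 lower; the 0 was without morphine 3, with 3718 at an unadjusted p under 0.05. The replicate numbers were not used as pairs in the main fit. Deviations of same-numbered libraries from their treatment mean correlated at -0.13, 0.16 and 0.29. Pairs 2 and 3 each lie in 1 set, so these values cannot tell pairing from the set. A replicate block gave 2 and 5 morphine calls. Under it the set difference is saline 1 minus morphine 1, corrected by the morphine effect in pairs 2 and 3, which each lie in 1 set. With this block 28 of the 58 genes were shared. The Schwann cell median was 0.10, from 0.93, and that of the rule markers 1.28, from 2.24. Uts2 came to 0.43, from 3.11, Uts2b to 0.76, from 2.12, and Calca to 0.56, from 1.83. Of the other values, 1602 for named genes stayed within the spread between libraries and 190 moved beyond it. For list medians these were 388 and 31. Sign was compared only for genes counted as different. A small difference could change sign within the spread, as for Chka (-0.09 to 0.14 with 1 library left out). The medians of the dorsal horn list were -0.51 with TPM and -0.48 with quantile normalization, and those of the oligodendrocyte list 0.44 and 0.40. The division rests on 3 libraries per set and FPKM without deposited counts, so precision at low levels is limited by the estimated depth.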
